A study of Mus musculus with 18 samples.

Results

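The endothelial and angiogenesis genes described here are 31 genes that mark blood vessel lining cells or act in vessel growth. They were chosen by name, and each was read from the probeset that the platform annotation gives to its symbol. Where a gene had several probesets, the one with the highest mean log2 signal over its 9 arrays was taken. All 31 genes were on the arrays, with 48 probesets, among 18193 named genes, and all 31 passed the filter on dim signals, as did 15153 genes in all. Total RNA came from gracilis muscle (gracillus muscle in the labels) of C57BL/6J male mice that were 3 to 5 wk old at the start, and each RNA pool combined 3 mice. Every mouse had 10 daily intraperitoneal injections, with muscle collected 24 h after the final one. The C group (Control) received vehicle on 10 days, the 24 h group (1D clenbuterol) received vehicle on 9 days and then 1 injection of clenbuterol at 1 mg/kg, and the 10 D group (10D clenbuterol) received 10 injections of clenbuterol at 1 mg/kg. Each group had 3 pools, and each pool was hybridised to 1 MOE430A and 1 MOE430B chip. Clenbuterol is an agonist of the beta-2 adrenergic receptor that enlarges skeletal muscle. Cages were assigned to treatments, the arrayed mice were those picked by the study because their urea nitrogen in blood or their weight gain set the treatments far apart, and a pool hides the spread between its mice.

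Endothelial cells line every capillary of skeletal muscle and carry junction proteins such as Pecam1, Cdh5 and Cldn5 that hold the vessel wall closed. Vessel growth is driven by Vegfa, which muscle fibres and other cells secrete and which acts on endothelial cells through its receptors Kdr and Flt1, while the angiopoietins act through the receptor Tek and steady or loosen the vessel. In the adult, the same cells control blood flow through nitric oxide made by Nos3, keep blood fluid through thrombomodulin (Thbd), and pass water through the channel Aqp1.

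The RefSeq promoter table (GRCm38.p6) held 21 start sites of 15 of the 31 members. The 250 bases before the start are shown for 4 members whose pools separated between groups in the results that follow: Emcn (chr3:137340828-137341077, + strand) and Eng (chr2:32646345-32646594, + strand), with levels in 24 h above C, Aqp1 (chr6:55336049-55336298, + strand), with levels in 24 h below C, and Kdr (chr5:75978456-75978705, - strand), with levels in 10 D below C. Capitals mark AGGAAG or its reverse CTTCCT, letters that ETS transcription factors such as the members Erg and Ets1 can bind.
Emcn: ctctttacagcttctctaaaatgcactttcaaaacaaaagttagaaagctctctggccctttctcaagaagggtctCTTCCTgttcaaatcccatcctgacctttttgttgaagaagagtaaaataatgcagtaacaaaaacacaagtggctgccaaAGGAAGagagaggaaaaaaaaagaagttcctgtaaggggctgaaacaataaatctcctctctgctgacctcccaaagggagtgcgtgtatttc
Eng: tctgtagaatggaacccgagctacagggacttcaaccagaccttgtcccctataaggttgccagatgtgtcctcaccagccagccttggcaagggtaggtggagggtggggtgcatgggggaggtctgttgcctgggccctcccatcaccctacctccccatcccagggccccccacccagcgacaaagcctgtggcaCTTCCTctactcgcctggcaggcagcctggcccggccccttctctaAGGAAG
Aqp1: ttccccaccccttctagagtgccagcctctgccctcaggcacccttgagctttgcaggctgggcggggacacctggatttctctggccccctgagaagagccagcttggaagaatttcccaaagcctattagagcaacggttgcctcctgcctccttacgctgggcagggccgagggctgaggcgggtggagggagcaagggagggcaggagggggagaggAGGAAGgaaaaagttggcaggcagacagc
Kdr: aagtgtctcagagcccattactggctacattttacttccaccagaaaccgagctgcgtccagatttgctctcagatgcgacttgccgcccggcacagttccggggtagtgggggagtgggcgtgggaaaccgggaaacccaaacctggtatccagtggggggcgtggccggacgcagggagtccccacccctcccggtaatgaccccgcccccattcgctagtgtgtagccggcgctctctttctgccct

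These letters stood at 2 places in the windows of Emcn and Eng, at 1 place in that of Aqp1 and at 0 in that of Kdr. Over all members, 10 of 21 promoters (47.6%) held AGGAAG on either strand, against 9686 of 32851 promoters in the table (29.5%). The 10 belonged to 9 genes, Apln, Aqp1, Egfl7, Emcn, Eng, Erg, Flt1, Robo4 and Tie1. The cAMP response element half-site TGACG, read on both strands, stood in 3 of the 21 (14.3%; Egfl7, Flt1 and Vegfa) and in 17.8% of all promoters, and the full palindrome TGACGTCA, which contains the half-site, in 1 (4.76%; Flt1) and in 1.55%. The hypoxia response core ACGTG was found in 2 (9.52%; Cav1 and Vegfa), against 16.6%, and the SOX letters ACAAT in 4 (19%; Emcn, Erg, Robo4 and Tek), against 27.7%, both strands counted. Start sites of 1 gene can overlap, and these matches are a description of the letters, with no test and no measurement of binding.

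Deposited signals were divided by the median signal of their array, so a level is a multiple of that median, and a log2 change is the difference between the mean log2 levels of 2 groups. Array medians ran between 30.8 and 88.4 on MOE430A and between 13.2 and 37.1 on MOE430B. Over 33752 probesets on both chips, limma called 154 at 24 h against C (111 higher and 43 lower), 0 at 10 D against C, and 17 at 10 D against 24 h (5 higher and 12 lower), at an adjusted p under 0.1. Of the 24 h and 10 D pools, those numbered 2 stood apart from the others of their groups, with the lowest array median of their group on both chips, and their departures from the group means correlated at 0.56 over MOE430A probesets and 0.16 over MOE430B probesets, which are not independent replicates. Without both of these pools, limma called 599 probesets at 24 h against C, 5 at 10 D against C and 103 at 10 D against 24 h. Markers of skeletal muscle fibres were all tested (12 of 12, summed level 2314 to 3710 in C, 1933 to 2727 in 24 h and 1678 to 2969 in 10 D), and the endothelial members Pecam1 and Cdh5 had geometric mean signals of 114.8 and 243.6 over the 9 arrays, above the filter signal of 14.1. Pools of 1 group hold different mice, so the p-values measure the spread between pools, and with 3 pools against 3 an exact permutation test of a single gene cannot give a p below 0.1.

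One day after a single clenbuterol injection, Thbd rose and Aqp1 fell relative to C, and no other of the 31 members passed the test across all probesets. These 2 calls (6.45% of the members) stood against 107 calls among the 15153 genes tested (0.706%). At the looser criterion of an unadjusted p under 0.05, Thbd, Emcn, Eng, Sox17 and Aplnr were higher (5 of 31, 16.1%, against 6.01% of all genes) and Aqp1 was lower (1 of 31, against 3.55%). The 3 pools of the 24 h group lay above all 3 C pools for 7 members (22.6%, against 11.5%), which added Egfl7 and Esam, and below all 3 C pools for 3 members, Aqp1, Angpt1 and Vegfa (9.68%, against 7.48%). The log2 change was above 0 for 19 of 31 members (61.3%, against 53.5%), and its median over the members was 0.14, against 0.04 over all genes tested. In a whole-muscle sample, fewer cells of a type and less RNA per cell cannot be told apart.

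After 10 days of clenbuterol, 0 members and 0 of all genes (0%) passed the test against C by limma, and ordinary analysis of variance also called 0 members. At an unadjusted p under 0.05, Thbd was higher (1 of 31, 3.23%, against 2.9% of all genes), and Kdr, Vegfa and Vegfb were lower (3 of 31, 9.68%, against 1.56%). All 3 of the 10 D pools lay below all 3 C pools for 7 members, Kdr, Vegfa, Vegfb, Aqp1, Cldn5, Gpihbp1 and Nos3 (22.6%, against 4.29%), and above them for Thbd (3.23%, against 6.26%). The log2 change was above 0 for 10 members (32.3%, against 53.1%), with a median of -0.09 over the members and 0.03 over all genes. The log2 changes of all members in each comparison are plotted by role.

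**Figure D1:**
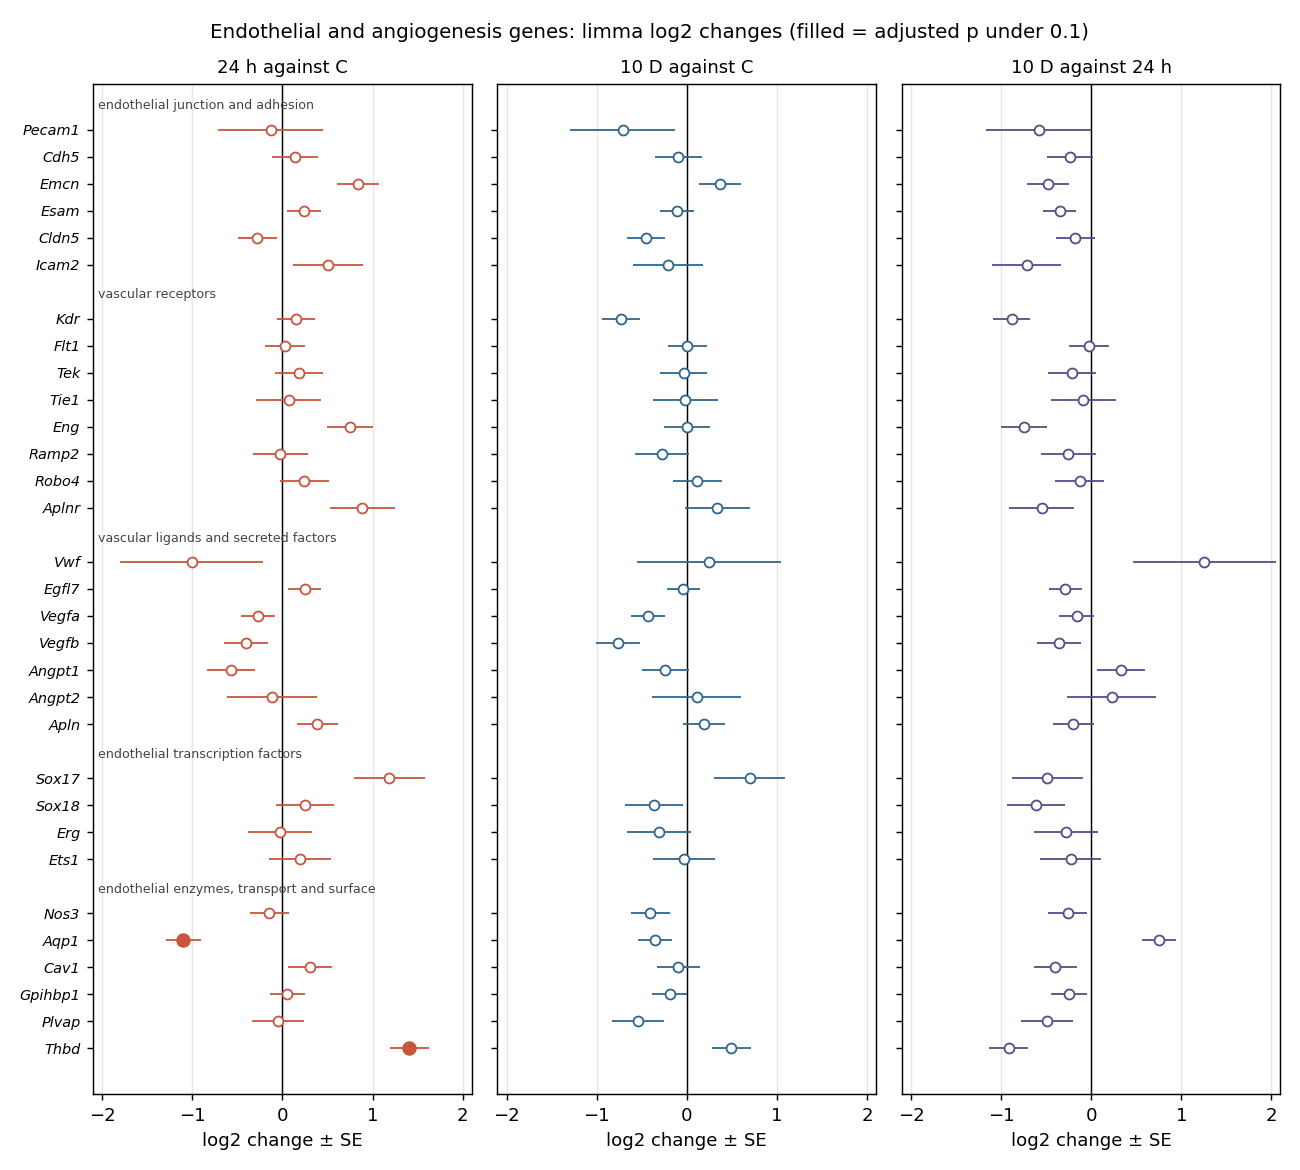
Log2 change with its standard error from limma for each of the 31 members, in rows grouped by role, for 24 h against C, 10 D against C and 10 D against 24 h (horizontal axes, log2 units). Filled points mark an adjusted p under 0.1, which only Thbd (1.41) and Aqp1 (-1.10) reached, both at 24 h against C, and 27 of 31 points lie left of 0 in the comparison of 10 D with 24 h.

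The direct comparison of the 2 durations also had 0 members called by limma (13 of all genes, 0.0858%) and 0 by ordinary analysis of variance. At an unadjusted p under 0.05, Eng, Kdr and Thbd were lower at 10 D than at 24 h (9.68%, against 3.46% of all genes) and Aqp1 was higher (3.23%, against 2.77%). The 10 D pools lay below all 24 h pools for 6 members, Egfl7, Emcn, Eng, Esam, Kdr and Thbd (19.4%, against 5.73%), and above them for Aqp1 (3.23%, against 4.41%). Of the 31 members, 27 had a log2 change below 0 and 4 above it, Angpt1, Angpt2, Aqp1 and Vwf (12.9%, against 48.1% of all genes). The median over the members was -0.26, against -0.02 over all genes. On the probesets used, all 6 junction and adhesion genes, all 8 receptors and all 4 transcription factors lay below 0. Their medians were -0.41, -0.24 and -0.38. Of the 14 other tested probesets of the members, 7 had the opposite sign to the probeset used. Members below 0 numbered between 24 and 27 of 31 over the alternative settings that tested all of them, and 26 of 29 where the filter stood at the 50th percentile. In the moderated F test over the 3 groups, Thbd alone passed (adjusted p = 0.0991; 3.23%, against 0.37% of all genes). This call was lost after quantile normalization, with no filter, with no intensity trend, by ordinary analysis of variance, with the replicate number as a block, and without any 1 pool other than 10 D pool 2 (0 members each). In the F test, 7 members had an unadjusted p under 0.05 (22.6%, against 7.4%): Aqp1, Emcn, Eng, Kdr, Sox17, Thbd and Vegfb.

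Thbd encodes thrombomodulin, the surface receptor by which endothelium turns thrombin toward activating the anticoagulant protein C. Its levels were 3.35, 2.70 and 3.17 in C pools, 6.97, 9.01 and 8.56 in 24 h pools, and 4.81, 4.74 and 3.51 in 10 D pools. Every 24 h pool stood above every other pool, and the 10 D pools lay between the 24 h and C pools with no overlap. At 24 h, Thbd rose against C (log2 change 1.41, SE 0.22, adjusted p = 0.0432), with means of 8.18 ± 1.07 in 24 h and 3.07 ± 0.33 in C (SD, n = 3 each). At 10 D the change against C was 0.49 (SE 0.22, adjusted p = 0.9997), and against 24 h it was -0.92 (SE 0.22, adjusted p = 0.388), neither past the threshold. The call at 24 h was lost without any 1 of C pools 1, 2 and 3 (adjusted p = 0.19, 0.23 and 0.16), without 24 h pool 2 or 3 (0.13 and 0.18), and with no intensity trend in the variance (0.11).

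Aqp1, the aquaporin of capillary endothelium that also sits in red cell membranes, had levels of 30.1, 27.8 and 24.3 in C pools, 11.8, 12.9 and 13.7 in 24 h pools, and 19.1, 23.3 and 22.2 in 10 D pools. The 3 groups did not overlap, with the 24 h pools lowest and the 10 D pools between. At 24 h, Aqp1 fell against C by 1.10 on the log2 scale (SE 0.19, adjusted p = 0.0663), with means of 12.8 ± 0.96 in 24 h and 27.4 ± 2.90 in C (SD, n = 3 each). The log2 change at 10 D was -0.35 against C (SE 0.19, adjusted p = 0.9997) and 0.75 against 24 h (SE 0.19, adjusted p = 0.45). Of the red cell markers (6 listed, 4 measured and 3 tested), the median log2 change at 24 h against C was -0.51: Slc4a1, the anion exchanger of red cells, had all 24 h pools below all C pools (-0.65, adjusted p = 0.757), while Hba-a1 (-0.51) and Alas2 (1.00) overlapped. Summed levels of the 4 overlapped, with 1.70 to 2.64 in 24 h and 1.63 to 2.48 in C. These sums were low beside the levels of Aqp1, and the remaining listed markers were not read, so they are a weak reading of red cell content. The part of red cells in the change of Aqp1 was not tested. The call at 24 h was lost without any 1 of C pools 1, 2 and 3 (adjusted p = 0.31, 0.28 and 0.16), any 1 of 24 h pools 1, 2 and 3 (0.19, 0.16 and 0.19) or 10 D pool 3 (0.13), and with no intensity trend (0.15).

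**Figure D2:**
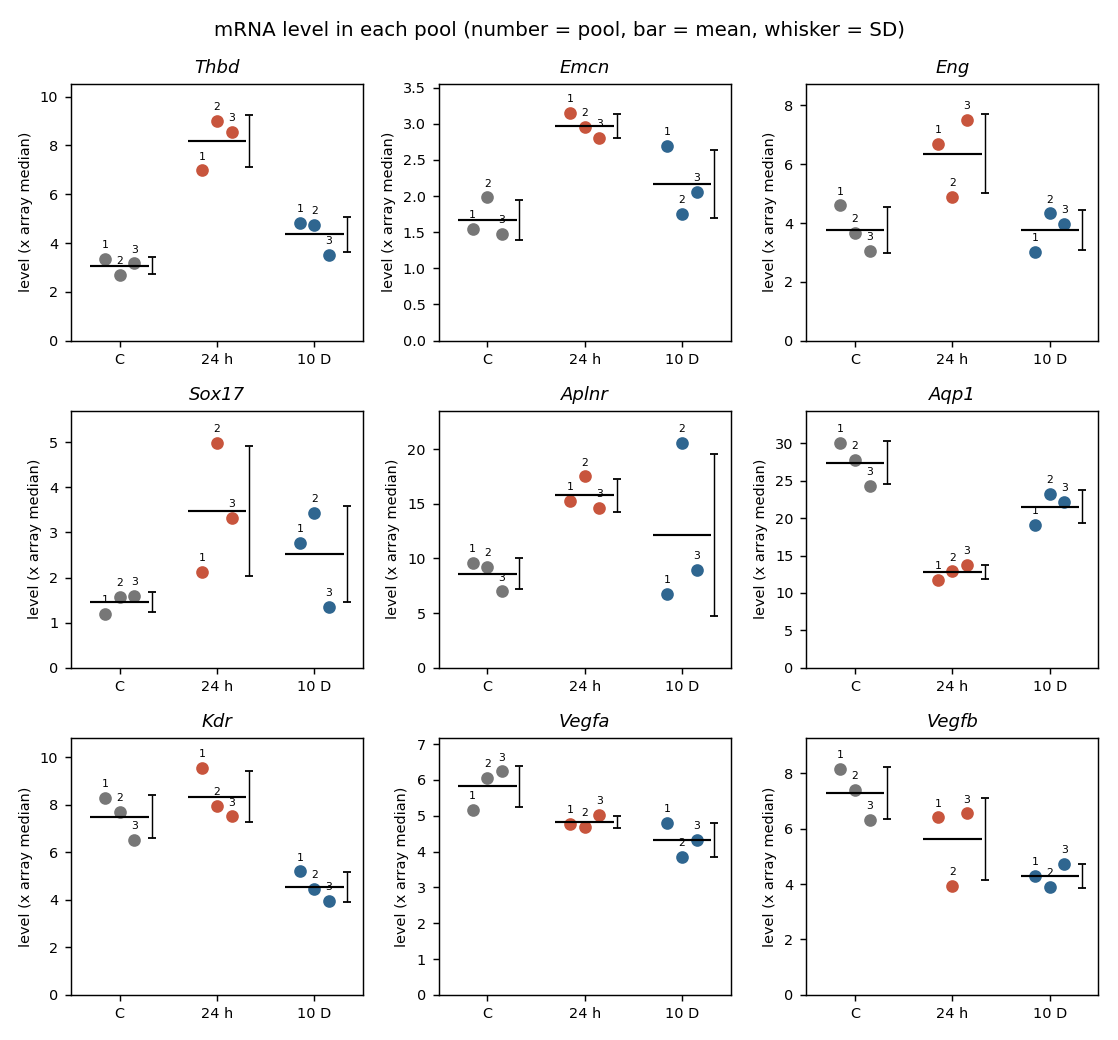
Level of 9 members in each pool (vertical axis, multiples of the array median, starting at 0) for C, 24 h and 10 D; a point is a pool with its number, the bar is the group mean and the whisker the SD. The 24 h pools of Thbd lie between 6.97 and 9.01, above all other pools, those of Aqp1 between 11.8 and 13.7, below all other pools, and the 10 D pools of Kdr between 3.94 and 5.19, below all other pools.

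The remaining enzymes, transporters and surface proteins of the endothelium had no call. Nos3, the endothelial nitric oxide synthase, had levels of 2.16, 2.35 and 2.75 in C pools, 2.02, 2.25 and 2.26 in 24 h pools, and 1.55, 2.14 and 1.81 in 10 D pools. The 10 D pools lay below every C pool, the highest 10 D value being 2.14 beside a lowest C value of 2.16, with -0.41 as its log2 change (SE 0.21). Gpihbp1 carries lipoprotein lipase to the capillary lumen, and its levels were 17.1, 16.3 and 16.2 in C pools, 17.0, 19.5 and 15.2 in 24 h pools, and 12.9, 14.9 and 15.9 in 10 D pools. The 10 D pools of Gpihbp1 again lay below all C pools by a small margin (log2 change -0.19, SE 0.20). Cav1, the coat protein of caveolae, averaged 28.5 ± 1.96 in C, 35.6 ± 6.06 in 24 h and 27.4 ± 6.93 in 10 D, and Plvap, which forms the diaphragms of caveolae and fenestrae, averaged 2.69 ± 0.97 in C, 2.55 ± 0.57 in 24 h and 1.79 ± 0.28 in 10 D (SD, n = 3 each). Neither separated the groups.

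Among the junction and adhesion genes, Emcn had the highest log2 change at 24 h against C. On the probesets used, the defining markers Pecam1 and Cdh5 overlapped in every comparison. Emcn encodes endomucin, a sialomucin of capillary and venous endothelium, and had levels of 1.54, 1.98 and 1.48 in C pools, 3.15, 2.96 and 2.81 in 24 h pools, and 2.69, 1.76 and 2.06 in 10 D pools. All 24 h pools lay above all pools of both other groups. The log2 change at 24 h against C was 0.84 (SE 0.23, adjusted p = 0.264) and at 10 D against 24 h -0.48 (SE 0.23, adjusted p = 0.95), and neither passed.

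Pecam1, a platelet and endothelial adhesion molecule, had levels of 3.02, 3.09 and 2.63 in C pools, 3.60, 1.60 and 3.27 in 24 h pools, and 3.90, 0.613 and 2.34 in 10 D pools. Pool 2 was the lowest in both treated groups, and the groups overlapped. The log2 change was -0.13 at 24 h and -0.71 at 10 D against C, both with an SE of 0.58. Cdh5, the cadherin of endothelial junctions, had levels of 5.07, 5.62 and 4.44 in C pools, 7.42, 5.06 and 4.53 in 24 h pools, and 3.70, 5.84 and 4.84 in 10 D pools. Its groups overlapped too, and against C the log2 change was 0.14 in 24 h and -0.09 in 10 D (SE 0.26 each). A dimmer probeset of Cdh5 had 24 h pools of 0.375, 0.580 and 0.652, below all C pools (0.864, 0.654 and 0.689). Its log2 change at 24 h against C was -0.49 (SE 0.35, adjusted p = 0.765), and its 10 D pools overlapped with C.

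Esam, an immunoglobulin-type adhesion molecule of tight junctions, had levels of 5.52, 5.76 and 6.50 in C pools, 6.94, 7.07 and 6.94 in 24 h pools, and 5.22, 6.17 and 5.09 in 10 D pools. The 24 h pools agreed closely and lay above all others, yet the log2 change against C was only 0.24 (SE 0.19, adjusted p = 0.788). Cldn5, a claudin that seals endothelial tight junctions, had levels of 4.03, 3.11 and 4.21 in C pools, 3.30, 3.27 and 2.75 in 24 h pools, and 3.02, 2.40 and 2.84 in 10 D pools. All 10 D pools lay below all C pools (log2 change -0.45, SE 0.21, adjusted p = 0.9997). Icam2, a leukocyte ligand on resting endothelium, averaged 0.819 ± 0.25 in C, 1.15 ± 0.28 in 24 h and 0.737 ± 0.35 in 10 D, and its groups overlapped.

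The receptors divided between Kdr, which was lowest at 10 D, and Eng and Aplnr, which were highest at 24 h. Kdr, the main signalling receptor for Vegfa, had levels of 8.29, 7.71 and 6.51 in C pools, 9.54, 7.94 and 7.51 in 24 h pools, and 5.19, 4.45 and 3.94 in 10 D pools. The 10 D pools lay below all pools of both other groups, while the 24 h and C pools overlapped. The log2 change at 10 D was -0.73 against C (SE 0.21, adjusted p = 0.9997) and -0.88 against 24 h (SE 0.21, adjusted p = 0.382), so neither passed across all probesets. Its mean was 4.53 ± 0.63 in 10 D and 7.50 ± 0.91 in C (SD, n = 3 each). Flt1, the other receptor of Vegfa, averaged 5.17 ± 0.21 in C, 5.30 ± 0.75 in 24 h and 5.27 ± 1.10 in 10 D, with log2 changes of 0.03 and 0.01 against C (SE 0.22 each). A dimmer probeset of Flt1 had 10 D pools of 4.205, 4.215 and 4.094, above all C pools (highest 4.074) and all 24 h pools (highest 3.758). Its log2 change at 10 D against C was 0.14 (SE 0.19). The remaining dimmer probesets of Flt1 overlapped between these groups.

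Eng encodes endoglin, a co-receptor of the transforming growth factor beta family on growing endothelium. Its levels were 4.60, 3.66 and 3.06 in C pools, 6.70, 4.88 and 7.51 in 24 h pools, and 3.01, 4.33 and 3.97 in 10 D pools. The 24 h pools lay above all others, and the 10 D and C pools overlapped, with equal means of 3.77. The log2 change at 24 h against C was 0.75 (SE 0.26, adjusted p = 0.411), and at 10 D against 24 h it was -0.75 (SE 0.26, adjusted p = 0.734). A dimmer probeset of Eng had levels of 1.37, 1.61 and 1.69 in C pools, 5.82, 5.31 and 3.98 in 24 h pools, and 1.37, 3.88 and 1.59 in 10 D pools. This probeset also had its 24 h pools above all others, and its log2 change at 24 h against C was 1.68 (SE 0.36, adjusted p = 0.126).

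Aplnr, the receptor of the peptide apelin, had levels of 9.61, 9.20 and 6.97 in C pools, 15.3, 17.5 and 14.6 in 24 h pools, and 6.79, 20.6 and 8.96 in 10 D pools. The 24 h pools lay above all C pools, and 10 D pool 2 lay above every other pool while its 2 companions lay within or near the C range. The log2 change at 24 h was 0.89 (SE 0.36, adjusted p = 0.518), and a dimmer probeset of Aplnr gave 0.18 (SE 0.25). The other receptors overlapped between groups. Tek, the angiopoietin receptor, averaged 2.89 ± 0.29 in C, 3.35 ± 0.94 in 24 h and 2.87 ± 0.70 in 10 D, and its relative Tie1 averaged 1.08 ± 0.44 in C, 1.08 ± 0.21 in 24 h and 1.03 ± 0.30 in 10 D. Ramp2, which pairs with the calcitonin receptor-like receptor to bind adrenomedullin, averaged 5.43 ± 1.77 in C, 5.28 ± 1.46 in 24 h and 4.34 ± 0.64 in 10 D, and Robo4, a roundabout receptor of endothelium, averaged 2.38 ± 0.07 in C, 2.86 ± 0.59 in 24 h and 2.68 ± 0.88 in 10 D (SD, n = 3 each).

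Of the ligands, Vegfa, Vegfb and Angpt1 had all pools of a treated group below C, and Egfl7 had its 24 h pools above C. Vegfa, the main growth factor of blood vessels, had levels of 5.17, 6.06 and 6.24 in C pools, 4.76, 4.68 and 5.01 in 24 h pools, and 4.79, 3.85 and 4.34 in 10 D pools. Every treated pool lay below every C pool. The log2 change was -0.27 at 24 h (SE 0.19, adjusted p = 0.764) and -0.43 at 10 D (SE 0.19, adjusted p = 0.9997) against C, and a dimmer probeset gave -0.12 at 24 h and -1.03 at 10 D (SE 0.55 each). Vegfb, a ligand of Flt1, had levels of 8.17, 7.39 and 6.32 in C pools, 6.41, 3.93 and 6.55 in 24 h pools, and 4.28, 3.88 and 4.72 in 10 D pools. All 10 D pools of Vegfb lay below all C pools (log2 change -0.76, SE 0.24, adjusted p = 0.9997), while the 24 h and C pools overlapped.

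Angpt1, the ligand that activates Tek, had levels of 3.62, 3.73 and 3.86 in C pools, 2.51, 2.92 and 2.20 in 24 h pools, and 4.14, 2.15 and 3.58 in 10 D pools. The 24 h pools lay below all C pools (log2 change -0.57, SE 0.26, adjusted p = 0.6), and the 10 D pools spanned both ranges. Egfl7, a matrix protein secreted by endothelium, had levels of 4.73, 4.51 and 5.04 in C pools, 5.52, 5.57 and 5.84 in 24 h pools, and 4.80, 4.91 and 4.19 in 10 D pools. Its 24 h pools lay above all others by a small margin (log2 change against C 0.25, SE 0.18, adjusted p = 0.774). This probeset of Egfl7 ends in x_at, so its probes can also match other transcripts. A dimmer probeset of Egfl7 gave 0.44 at 24 h against C (SE 0.19, adjusted p = 0.571) and -0.79 at 10 D against 24 h (SE 0.19, adjusted p = 0.418). Its 24 h pools lay above all C pools, and its 10 D pools (highest 3.5) below them (lowest 3.603). Angpt2, which opposes Angpt1 in some settings, averaged 0.537 ± 0.07 in C, 0.54 ± 0.25 in 24 h and 0.626 ± 0.32 in 10 D, and Apln, the precursor of apelin, averaged 1.60 ± 0.34 in C, 2.07 ± 0.17 in 24 h and 1.81 ± 0.20 in 10 D, both with overlapping groups. Vwf, the blood clotting protein stored by endothelium, averaged 1.75 ± 0.23 in C, 1.34 ± 1.12 in 24 h and 2.36 ± 1.50 in 10 D, and its lowest value was 0.19 in 24 h pool 2.

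Of the transcription factors, only Sox17 separated the 24 h and C groups on the probesets used. Sox17, which acts in arterial endothelium, had levels of 1.19, 1.57 and 1.60 in C pools, 2.13, 4.99 and 3.33 in 24 h pools, and 2.77, 3.44 and 1.35 in 10 D pools. The 24 h pools lay above all C pools but spread widely, and the 10 D pools overlapped both groups. The log2 change at 24 h was 1.18 (SE 0.39, adjusted p = 0.393). This probeset ends in x_at, a mark of sets whose probes can also match other transcripts, and the other Sox17 probeset gave -0.10 (SE 0.24). Sox18, its close relative, averaged 2.62 ± 0.48 in C, 3.22 ± 1.11 in 24 h and 2.08 ± 0.62 in 10 D. Erg averaged 1.70 ± 0.34 in C, 1.72 ± 0.66 in 24 h and 1.39 ± 0.42 in 10 D, and Ets1, the other ETS factor, averaged 3.38 ± 0.21 in C, 3.95 ± 0.94 in 24 h and 3.59 ± 1.85 in 10 D (SD, n = 3 each). All 3 overlapped between groups on the probesets used. A dimmer probeset of Ets1 had 24 h pools of 4.94, 3.77 and 3.87, above all C pools (highest 3.104). Its log2 change at 24 h against C was 0.57 (SE 0.29, adjusted p = 0.637).

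**Figure D3:**
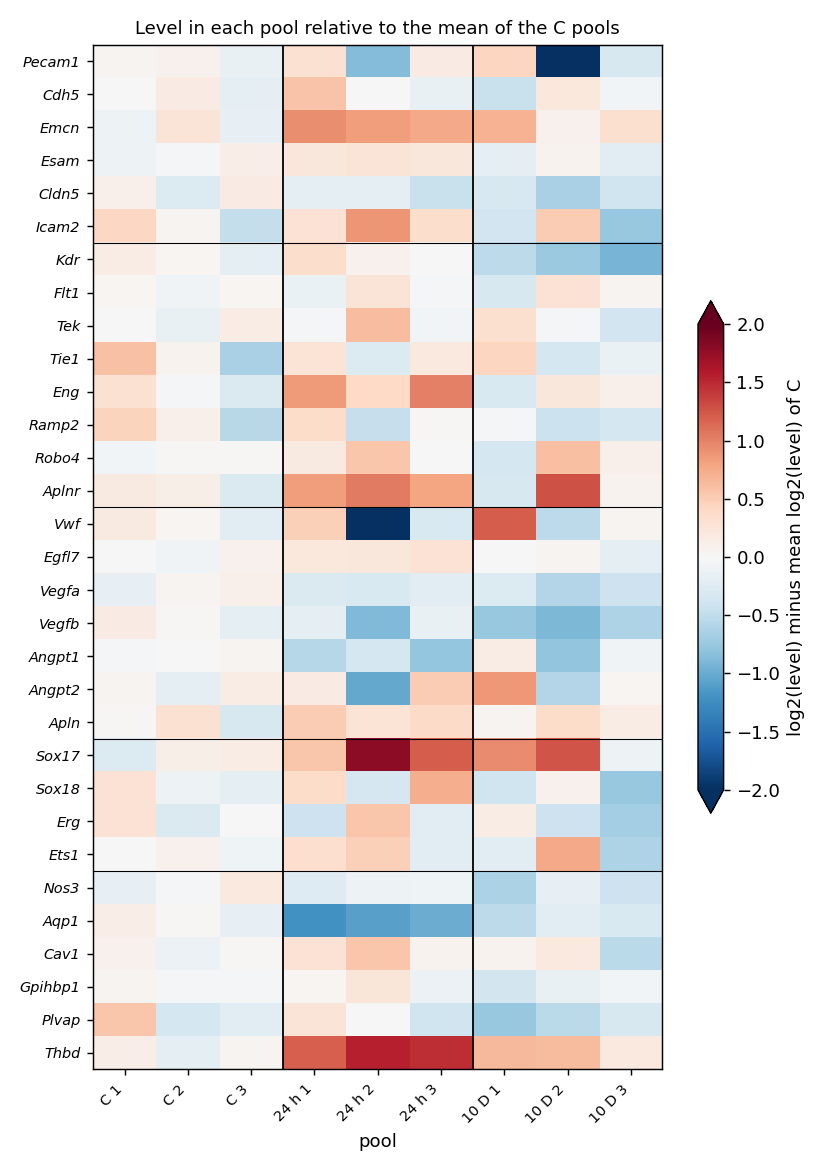
Log2 level of each of the 31 members (rows, by role) in each of the 9 pools (columns) minus the mean log2 level of the C pools, on a colour scale that runs between -2 and 2 with values past it shown at its ends. Thbd is above the C mean in all treated pools and Aqp1 below it, and Vwf in 24 h pool 2 and Pecam1 in 10 D pool 2 stand out as low cells.

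The members spread more widely between pools in the treated groups than in C, as read from the median range. The same range was not computed over all genes, and treated pools numbered 2 stood apart over all probesets. The wider spread is therefore not shown to be particular to the members. The range of log2 levels within a group had a median over the members of 0.349 in C, 0.547 in 24 h and 0.618 in 10 D. Ranges past 1 on the log2 scale occurred for 1 member in C (Tie1 had the largest, 1.24), 5 in 24 h (Vwf, 3.67) and 7 in 10 D (Pecam1, 2.67). The tightest members were Robo4 in C (0.0799), Esam in 24 h (0.0268) and Egfl7 in 10 D (0.232). The median over the members of the log2 level minus the C mean was 0.28, 0.23 and 0.01 in 24 h pools 1, 2 and 3, and -0.23, -0.04 and -0.22 in 10 D pools 1, 2 and 3. The same median over all genes tested lay between 0.05 and 0.08 in 24 h pools and between -0.002 and 0.08 in 10 D pools.

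Of 45 tested member probesets, 14 belonged to 8 genes beside the one used, and limma called 0 of them in any of the 3 comparisons. At an unadjusted p under 0.05 were 3 of them at 24 h against C and at 10 D against 24 h, the dimmer one of Eng and 2 of Egfl7, and 0 at 10 D against C. Their log2 change had the sign of the brighter probeset for 10 of 14 at 24 h against C, 9 at 10 D against C and 7 at 10 D against 24 h. At 24 h the signs differed for Cdh5 (-0.49 for the dimmer probeset), for 1 of 3 dimmer probesets of Flt1 (-0.13), for Sox17 and for 1 of 3 of Ets1 (-0.21). At 10 D against C they differed for Aplnr (-0.12), for 1 of 3 dimmer probesets of Egfl7 (0.43), for 2 of 3 of Ets1 (0.10 and 0.36) and for Sox17 (-0.06). At 10 D against 24 h they differed for Cdh5 (0.32), 2 of Flt1 (0.28 and 0.55), 1 of Egfl7 (0.01), 2 of Ets1 (0.19 and 0.01) and Sox17 (0.03). All 3 dimmer probesets of Egfl7 had a log2 change above 0 at 24 h, between 0.42 and 0.65.

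**Figure D4:**
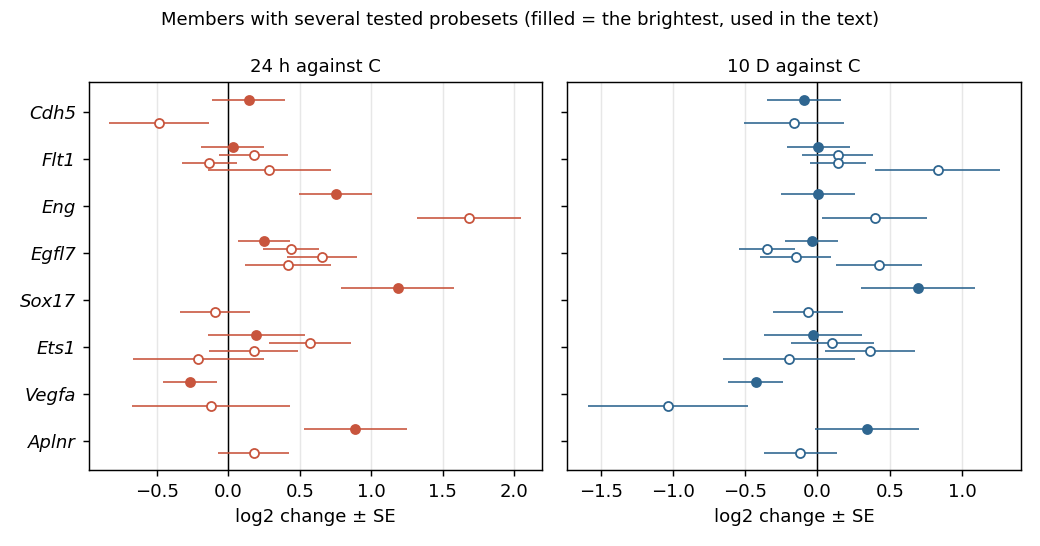
Log2 change with its standard error for every tested probeset of the 8 members with several, at 24 h against C and at 10 D against C (horizontal axes, log2 units). Filled points are the brightest probesets, used for the levels given here, and the open points of Eng (1.68) and Vegfa (-1.03) lie further from 0 than the filled ones, while those of Sox17 and Aplnr lie nearer.

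Other genes of vessel growth and tone had 33 of 37 tested, and 3 rose at 24 h against C, where 0.706% of all genes were called. They were the chemokine Cxcl12 (log2 change 1.51, SE 0.20, adjusted p = 0.023), the vasoconstrictor peptide Edn1 (1.50, SE 0.23, adjusted p = 0.0439) and the growth factor Igf1 (1.21, SE 0.21, adjusted p = 0.0679). Cxcl12 was also lower at 10 D than at 24 h (-1.66, adjusted p = 0.037), where 0.0858% of all genes were called, and 0 of the 33 passed at 10 D against C. At an unadjusted p under 0.05, 7 of the 33 were higher and 0 lower at 24 h against C (6.01% and 3.55% of all genes). These counts were 1 and 1 at 10 D against C (2.9% and 1.56%), and 0 and 4 at 10 D against 24 h (2.77% and 3.46%). Edn1, made mainly by endothelium, had levels of 0.747, 0.876 and 0.925 in C pools, 2.35, 2.68 and 2.15 in 24 h pools, and 1.43, 1.02 and 1.12 in 10 D pools, so all 3 groups stood apart. Jag1, a Notch ligand, had a log2 change of 1.12 at 24 h that did not pass (adjusted p = 0.118). The median over the list was 0.15 at 24 h and -0.11 at 10 D against C. Cxcl12, Edn1 and Igf1 had been picked from these arrays in the study itself, and their calls here are not independent evidence. For Igf1, the study marked the residuals of this probeset as not normally distributed. It also reported higher Igf1 mRNA at 24 h by quantitative PCR in a separate set of mice.

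Of 30 further blood endothelial genes, 26 were tested and 1 rose at 24 h, Tinagl1, a matrix protein of vessel walls that the study had also picked from these arrays. Tinagl1 had levels of 3.13, 3.27 and 3.29 in C pools, 7.95, 7.74 and 7.79 in 24 h pools, and 4.73, 4.17 and 4.80 in 10 D pools. The groups were tight and did not overlap, and the log2 change was 1.28 at 24 h (SE 0.18, adjusted p = 0.0296) and 0.50 at 10 D (SE 0.18, adjusted p = 0.9997) against C. Mmrn2, an endothelial matrix protein, had a log2 change of 0.84 (adjusted p = 0.145), Palmd one of 0.87 (adjusted p = 0.258) and Klf2, a flow-responsive transcription factor, one of -1.05 (adjusted p = 0.323) at 24 h, all short of the threshold. The median over these 26 genes was 0.26 at 24 h and 0.10 at 10 D against C, and -0.25 at 10 D against 24 h. Their 1 call at 24 h stood beside 0.706% of all genes called. At an unadjusted p under 0.05, 3 of the 26 were higher and 1 lower at 24 h against C (6.01% and 3.55% of all genes). These counts were 1 and 0 at 10 D against C (2.9% and 1.56%), and 0 and 6 at 10 D against 24 h (2.77% and 3.46%).

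Hypoxia response genes, which include regulators of Vegfa, were all tested (16 of 16) and had 0 calls by limma in each comparison. At an unadjusted p under 0.05, 3 of the 16 were higher and 2 lower at 24 h against C (6.01% and 3.55% of all genes). These counts were 2 and 0 at 10 D against C (2.9% and 1.56%), and 1 and 2 at 10 D against 24 h (2.77% and 3.46%). Egln3, an oxygen-sensing hydroxylase, had levels of 2.95, 3.11 and 3.25 in C pools, 10.1, 6.74 and 10.1 in 24 h pools, and 9.33, 3.69 and 6.45 in 10 D pools, above C in every treated pool. Ddit4, an inhibitor of mTOR signalling, had levels of 3.19, 2.99 and 5.25 in C pools, 1.97, 2.22 and 1.24 in 24 h pools, and 6.41, 5.65 and 6.49 in 10 D pools, with the 24 h pools lowest and the 10 D pools highest. Their log2 changes at 24 h were 1.51 (adjusted p = 0.124) and -1.07 (adjusted p = 0.258). Vhl, which marks the hypoxia factors for destruction, and Arnt, their partner, had 0.45 (adjusted p = 0.603) and 0.50 (adjusted p = 0.492).

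Cell types other than endothelium were read through their own marker lists. At 24 h against C, the median log2 change was -0.26 for muscle fibres (12 genes), -0.45 for fibroblasts (10), -0.56 for adipocytes (6), -0.07 for pericytes and vascular smooth muscle (12), 0.22 for lymphatic endothelium (6) and 0.05 for macrophages (11). At 10 D against C it was -0.25 for muscle fibres, -0.22 for fibroblasts, -0.99 for adipocytes, -0.01 for pericytes and vascular smooth muscle, 0.11 for lymphatic endothelium and -0.01 for macrophages. In these 6 lists limma called 0 genes in the 3 comparisons. At an unadjusted p under 0.05 at 24 h against C were 1 fibroblast gene (lower), 2 genes of pericytes and smooth muscle (1 higher and 1 lower), 1 lymphatic gene and 1 macrophage gene (both higher). Of all genes, 6.01% were higher and 3.55% lower by this criterion. The summed level of the adipocyte markers ran between 231.9 and 331.4 in C pools, 192.4 and 318.5 in 24 h pools, and 177.1 and 305.0 in 10 D pools, so the groups overlapped, as did those of the fibroblast, macrophage and muscle fibre markers. For pericytes and smooth muscle the sum was 175.3 to 188.4 in C, 164.2 to 192.2 in 24 h and 189.5 to 218.7 in 10 D. All 10 D sums thus lay above all C sums by a small margin, yet each gene of the list overlapped between 10 D and C. Rgs5 and Abcc9 had the highest levels in the list. Rgs5 had 50.8, 108.8 and 58.1 in 10 D pools and 58.2 to 66.0 in C. Abcc9 had 82.5, 41.3 and 80.6 in 10 D pools and 54.4 to 63.9 in C. Abcc9 was read on MOE430B and Rgs5 on MOE430A, so the sum joins multiples of different array medians. For lymphatic endothelium the sum was 10.32 to 10.51 in C, 11.57 to 14.48 in 24 h and 10.87 to 12.02 in 10 D. The sums of both treated groups lay above those of C there. At 24 h only Pdpn (log2 change 0.735) and Lyve1 (0.65) had all pools above C, while Prox1 (-0.58) and Reln (-0.32) were below 0. At 10 D each gene of the list overlapped with C. No marker of these lists was listed at 0. Cav1, Vegfa and Vegfb are also made by adipocytes or muscle fibres, and the part of other cell types in the members' changes was not tested.

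**Figure D5:**
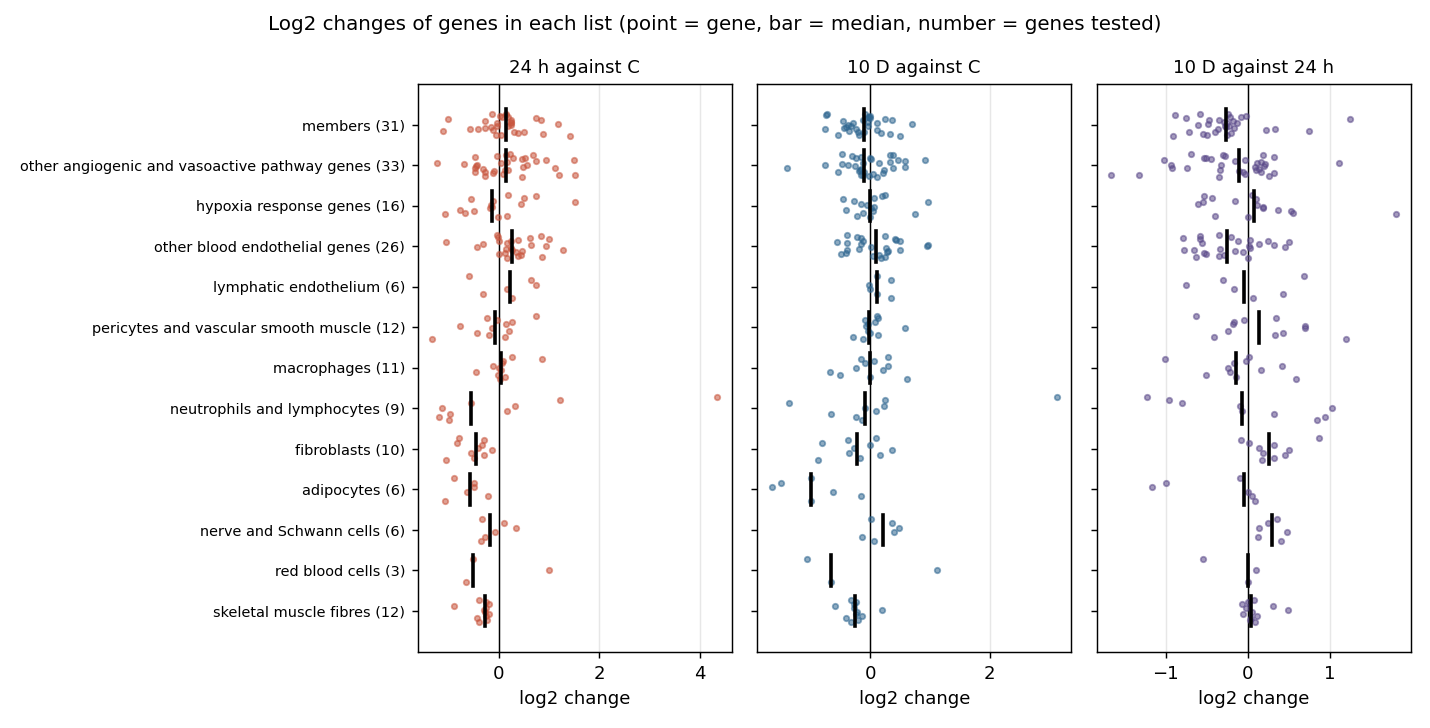
Log2 change of each tested gene (points) in the members and in lists of related pathways and of other cell types (rows, with the number of genes), with the median as a bar, for 24 h against C, 10 D against C and 10 D against 24 h (horizontal axes, log2 units). The members' median is 0.14, -0.09 and -0.26 in the 3 panels, and that of the further blood endothelial genes is 0.26, 0.10 and -0.25.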

How the data were processed

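Messenger RNA was measured on Affymetrix MOE430A and MOE430B chips, 18 arrays of 9 RNA pools. The authors quantified the images with MAS 5.0, and they deposited linear signal intensities that had not been scaled to each other. MAS 5.0 settings are not given in the sources used here, and detection calls were not used. Samples were grouped by the treatment in their labels. The number of arrays limits the precision.

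Each intensity was divided by its array's median, a signal of 0 was set to 0.05, and log2 was taken. The 100 probesets that both chips carry were read on MOE430A alone, leaving 45037. The platform annotation gave the symbols, which were updated with the GRCm38.p6 gene table; 34945 probesets had 1 symbol, 932 had several and were given no name, and 9160 had none listed. Probesets were tested from the 25th percentile of mean log2 signal upward, which was 14.1 on the signal scale for MOE430A (16969 probesets) and 6.97 for MOE430B (16783). The 3 groups were fitted to each chip with limma 3.58.1 in R 4.3.3 (lmFit, then eBayes with an intensity trend, 6 residual degrees of freedom). All p-values are two-sided, Benjamini-Hochberg adjustment covered all probesets of the 2 chips at once, and the threshold was an adjusted p of 0.1. Shares of genes use 1 probeset per gene. The script was tested on simulated data.

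Members with an unadjusted p under 0.05 in any contrast or the F test, or with all pools of a treated group on 1 side of all C pools, and Pecam1, Cdh5, Kdr and Vegfa, are given pool by pool, the others by means. The members and the lists were chosen with earlier results of these data known. Alternatives changed the normalization, filter, variance model, low signals, probeset rule and replicate block, and each pool was left out in turn. The deposited signals carry no batch or scan date in the labels, and none was tested.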

Additional observations from a re-analysis of the deposited data

How the results depend on the processing

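The 24 h calls of Thbd and Aqp1 were made under 7 of 8 alternatives that kept all pools, and both were lost with no intensity trend, which called 52 probesets and 0 members at 24 h against C. Adjusted p over the 18 settings lay between 0.026 and 0.23 for Thbd and between 0.03 and 0.31 for Aqp1. None of the 14 log2 changes with an unadjusted p under 0.05 in a contrast (9 members) changed sign in these settings; changes of members short of it were not followed one by one. In the F test, Thbd was not called after quantile normalization, with no filter, with no intensity trend, by ordinary analysis of variance or with the replicate block (0 members each). Counts over all probesets at 10 D against 24 h were 40 after quantile normalization, 5 with no intensity trend and 27 with 16 added to each scaled signal. The F test called 24 probesets with no intensity trend and 31 by ordinary analysis of variance, which called 100 at 24 h against C. With treated pools numbered 2 left out, a setting chosen after seeing the data, 599 probesets were called at 24 h against C, 5 at 10 D against C, 103 at 10 D against 24 h and 336 by the F test, with 2 members by the F test. Causes were not tested.

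Replicate numbers were not taken to pair the pools, because departures of pools with the same number correlated between -0.072 and 0.046 for treated pools and C on MOE430A. Between 10 D and 24 h pools of the same number they correlated at 0.39, 0.56 and 0.1 on MOE430A and 0.11, 0.16 and 0.0077 on MOE430B for numbers 1, 2 and 3. Pools of different numbers correlated too: 10 D pool 1 at 0.33 with 24 h pool 3 and at -0.55 with 24 h pool 2 on MOE430A. Departures cancel within a group of 3 pools, so the value for number 1 cannot be told apart from that for number 2. With the replicate number as a block, limma called 209 probesets and the same 2 members at 24 h against C, 3 probesets at 10 D against C, and 17 probesets and 0 members at 10 D against 24 h.

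With 1 pool left out in turn, calls at 24 h against C ranged over 24 to 435 probesets and 0 to 2 members, at 10 D against C over 0 to 1 probesets, at 10 D against 24 h over 1 to 75 probesets, and in the F test over 7 to 242 probesets and 0 to 2 members. The median log2 change of the members ranged over 0.0522 to 0.196 at 24 h against C, -0.214 to -0.0418 at 10 D against C and -0.332 to -0.214 at 10 D against 24 h. The highest probeset counts came without 10 D pool 2, except at 10 D against C, where the 1 call came without C pool 2.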

Other observations

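The neutrophil and lymphocyte markers (9 of 13 tested) held 1 call at 24 h against C, beside a median log2 change of -0.54 over the 9. Of all genes, 0.706% were called in that comparison. S100a8, a calcium-binding protein of neutrophils and other myeloid cells, had levels of 0.205, 0.0354 and 0.196 in C pools, 2.78, 2.07 and 2.05 in 24 h pools, and 1.36, 1.47 and 0.468 in 10 D pools. By limma it rose at 24 h against C (log2 change 4.34, SE 0.68, adjusted p = 0.0439), but its C levels were dim, and the size of a change measured against them is uncertain. The other neutrophil markers overlapped between 24 h and C (S100a9, Elane and Mpo). The B cell marker Ms4a1 had levels of 1.39, 1.65 and 1.69 in C pools, 0.559, 0.801 and 0.748 in 24 h pools, and 1.37, 1.34 and 1.29 in 10 D pools, and its log2 change at 24 h of -1.18 did not pass (adjusted p = 0.106). Cd79a, also of B cells, and Ptprc, shared by leukocytes, likewise had all 24 h pools below all C pools, with log2 changes of -0.97 and -0.99, and neither passed. Among lymphatic endothelial genes, Pdpn, a membrane glycoprotein also made by fibroblasts, had levels of 3.68, 3.11 and 3.25 in C pools, 6.19, 5.37 and 5.17 in 24 h pools, and 2.97, 3.76 and 3.19 in 10 D pools. Its 24 h pools lay above all others, with a log2 change of 0.73 (adjusted p = 0.253).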
